A study of Mus musculus with 6 samples.

Results

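The genes described here encode the fatty acid enzymes and transporters of the peroxisome and the peroxins, the proteins that build the organelle. They were listed by symbol as 26 enzyme and transporter genes and 13 Pex genes. All 39 symbols matched 1 Ensembl gene each among the 55487 genes of the deposited tables, and all 39 passed the low-count filter. Liver RNA was sequenced from 6 male mice aged 8 weeks and fed standard chow, 3 in each of 2 groups. SCADD mice were of the inbred substrain BALB_cByJ, which lacks short-chain acyl-CoA dehydrogenase activity, and WT mice were of the substrain BALB_cJ. Genotype and substrain coincide in every animal, so the enzyme deficiency and other substrain variants cannot be told apart, and no group received a drug or a diet change.

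Peroxisomes shorten very long-chain, branched and dicarboxylic fatty acids and bile acid precursors by a beta-oxidation pathway of their own. Acyl-CoAs enter through ABC transporters, an oxidase passes electrons to oxygen and makes hydrogen peroxide, a multifunctional enzyme hydrates and dehydrogenates the product, and a thiolase releases acetyl-CoA. The shortened chains leave as carnitine esters or free acids and are finished in mitochondria. Matrix enzymes are made in the cytosol and are carried in by the receptor Pex5, which reads a C-terminal signal, or by Pex7, which reads an N-terminal one. In rodent liver many of these genes are known targets of the nuclear receptor PPAR-alpha, which binds DNA with RXR, and drugs that activate it make peroxisomes multiply.

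Reads counted in genes totalled 16948986 to 23912744 in SCADD libraries and 23991104 to 27148756 in WT libraries. Unmapped reads made up 25.05% to 36.65% of reads in SCADD libraries and 13.6% to 16.4% in WT libraries, and SCADD replicate 3 stood at the far end of both measures. The level of Acads, which encodes short-chain acyl-CoA dehydrogenase, was lower in SCADD livers (100.2 ± 3.78 CPM against 182 ± 15.2 CPM in WT livers, SD, n = 3 each; log2 fold change -0.86, SE 0.13, adjusted p = 0.00407). CPM are gene counts scaled to a fixed library size after TMM normalization, and adjusted p-values are from edgeR's quasi-likelihood test over all 13498 tested genes. Of 7 matched hepatocyte markers 1 was called lower, and their summed level was 47097 to 96328 TPM in SCADD livers and 72434 to 97538 TPM in WT livers. Markers of sinusoidal endothelium summed to 55.0 to 76.2 TPM in SCADD livers and 105 to 119 TPM in WT livers, with 1 of 5 called lower, and cholangiocyte markers to 26.4 to 29.2 TPM in SCADD livers and 36.3 to 44.4 TPM in WT livers. Most of each sum came from 1 gene that was not called. These were Clec4g (means 59.2 TPM in SCADD and 98.6 TPM in WT livers, adjusted p = 0.110) and Spp1 (27.0 and 39.4 TPM, adjusted p = 0.0987). Of the 5 endothelial markers 4 had estimates below 0 and 1, Stab2, above it. Red blood cell markers summed to 1319.8 to 3896 TPM in SCADD livers and 1913 to 2768 TPM in WT livers, and 1 of their 3 tested genes, Alas2, was called higher (log2 fold change 1.13, SE 0.17, adjusted p = 0.00357). No matched marker had 0 counts in all 6 libraries. The part of these differences in the results was not tested, and in bulk tissue fewer cells of a type and less RNA per cell cannot be told apart.

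Of the 39 genes 5 rose and 1 fell in SCADD livers at an adjusted p under 0.05, or 12.8% and 2.56%, where 7.02% of all tested genes were called in either direction. The enzymes that rose were Ehhadh, Acaa1b and Abcd3, which is 3 of 26 or 11.5%, and 0 enzymes fell. The peroxins that rose were Pex11a and Pex5, which is 2 of 13 or 15.4%, and 1 peroxin, Pex11g, fell. Over all tested genes 4.22% rose and 2.8% fell, 569 and 378 genes, and under upper-quartile scaling 470 rose and 482 fell. At an unadjusted p under 0.05 by edgeR 1 enzyme was lower, against 10.2% of all genes, and DESeq2 called 0 enzymes lower, against 4.04% of all genes. The count of enzymes that rose was 6 with DESeq2, which called 5.52% of all genes higher. Without SCADD replicate 3 it was 5, in a fit where 909 of 13805 tested genes rose. The count of peroxins that rose was 1 without SCADD replicate 1, WT replicate 2 or WT replicate 3. In those fits, in that order, 324 of 13814, 240 of 13794 and 283 of 13765 tested genes rose, against 569 of 13498 in the main fit. Pex11g was not called without WT replicate 2 or WT replicate 3, where 155 and 177 of all tested genes fell, against 378 in the main fit. The median log2 fold change was 0.14 over the enzymes and 0.11 over the peroxins, against -0.0008 over all tested genes, so the typical member of either set lay close to no difference and a few members lay far above it.

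**Figure D1:**
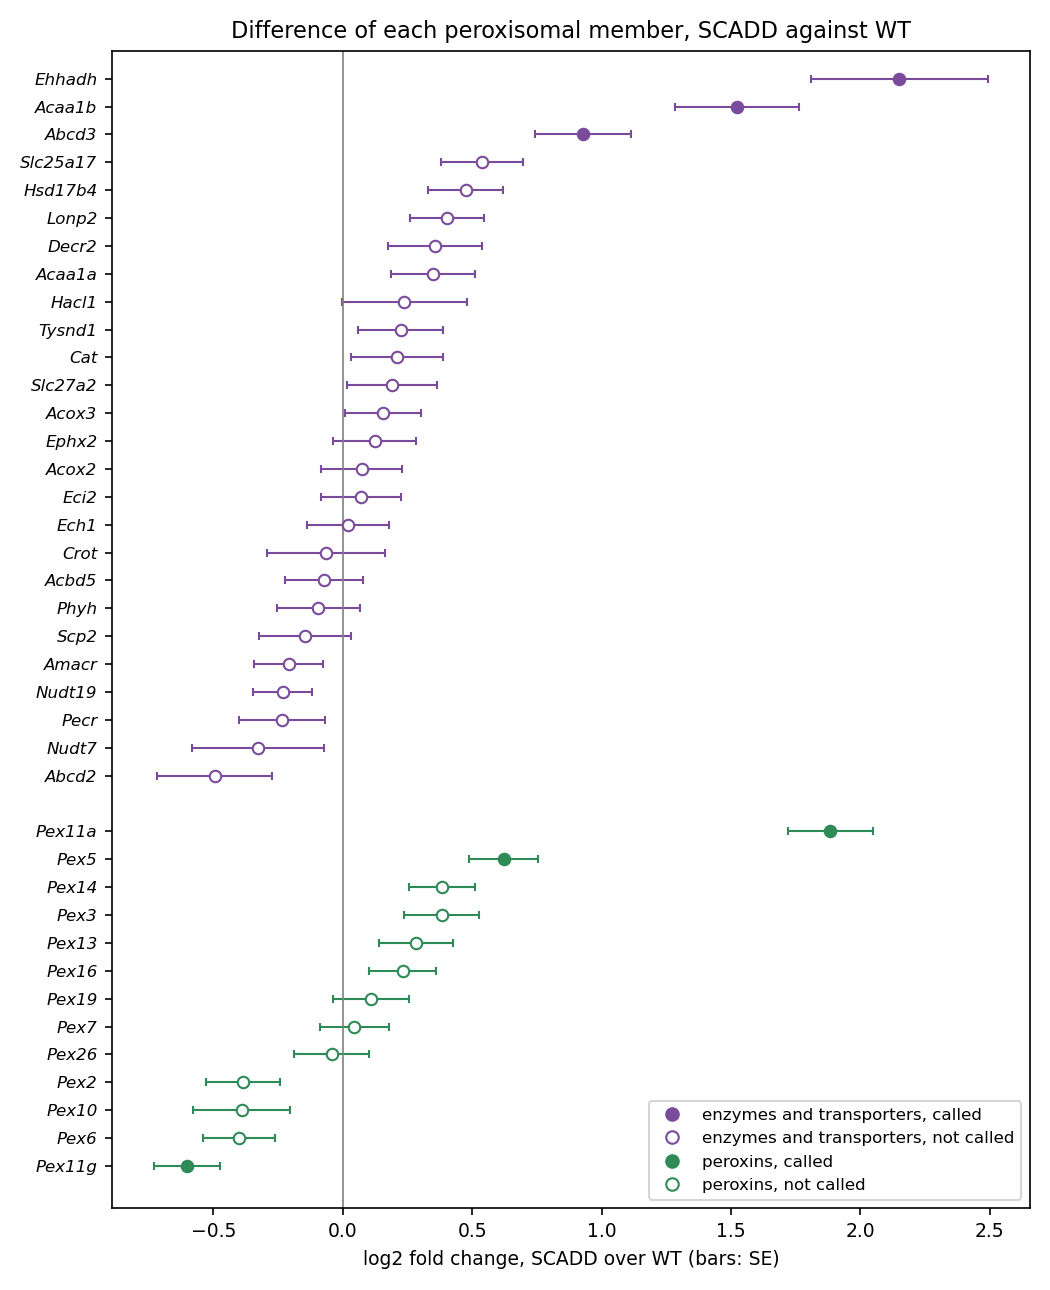
Log2 fold change of each of the 39 genes in SCADD over WT livers (x axis), with bars for the SE, for 26 enzymes and transporters in purple and 13 peroxins in green, ordered by size within each set. Filled points passed an adjusted p under 0.05; Ehhadh at 2.15, Pex11a at 1.88 and Acaa1b at 1.52 stand apart from the rest, and Pex11g at -0.60 is the lowest.

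Ehhadh encodes the L-bifunctional enzyme, which carries out the hydration and dehydrogenation steps and is known for handling dicarboxylic acids (ENSMUSG00000022853, chromosome 16, 21761287 to 21787807, GRCm38). Its level was 3704, 2107 and 3122 CPM in SCADD replicates 1, 2 and 3, and 1040.3, 536 and 436 CPM in WT replicates 1, 2 and 3. Replicate 2 was the lowest of the SCADD libraries and still lay above WT replicate 1, the highest of the WT libraries, so the groups did not overlap. The fold change was 4.44 (log2 2.15, SE 0.34, adjusted p = 0.00617). Without SCADD replicate 3 the call was lost at an adjusted p of 0.0778.

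Acaa1b encodes a peroxisomal 3-ketoacyl-CoA thiolase, the enzyme of the last step (ENSMUSG00000010651, chromosome 9, 119148023 to 119157093). It had 2849, 2027 and 2362 CPM in SCADD livers and 1133, 644 and 743 CPM in WT livers, again with no overlap. The fold change was 2.87 (log2 1.52, SE 0.24, adjusted p = 0.00431). Its call held under all 16 other settings of the test, with adjusted p-values up to 0.0363.

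Abcd3 encodes PMP70, an abundant ABC transporter of the peroxisomal membrane that takes up long-chain, branched and dicarboxylic acyl-CoAs (ENSMUSG00000028127, chromosome 3, 121758774 to 121815302). It had 686, 532 and 554 CPM in SCADD livers and 382, 275 and 274 CPM in WT livers. The fold change was 1.90 (log2 0.93, SE 0.19, adjusted p = 0.0139). The call was lost without SCADD replicate 1, WT replicate 2 or WT replicate 3, at adjusted p-values of 0.0689 to 0.0947.

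Pex11a encodes a membrane protein that elongates peroxisomes before they divide, and is the Pex11 form known to be induced by peroxisome proliferators in rodents (ENSMUSG00000030545, chromosome 7, 79735957 to 79743131). Its level was 311, 258 and 339.65 CPM in SCADD livers and 91.1, 71.7 and 83.3 CPM in WT livers. Every SCADD library lay far above every WT library. The fold change was 3.69 (log2 1.88, SE 0.16, adjusted p = 0.000122), the smallest p-value of the 39 genes, and the call held under all 16 other settings.

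Pex11g encodes another member of the Pex11 family and moved the opposite way (ENSMUSG00000069633, chromosome 8, 3457105 to 3467680). It had 29.8, 26.9 and 25.4 CPM in SCADD livers and 40.2, 38.997 and 45.5 CPM in WT livers, with no overlap. The fold change was 0.658 (log2 -0.60, SE 0.13, adjusted p = 0.0182). Without WT replicate 2 or WT replicate 3 the call was lost (adjusted p 0.0539 and 0.0898).

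Pex5, the import receptor for C-terminal signals, had 66.6, 72.3 and 62.4 CPM in SCADD livers and 48.8, 39.3 and 42.7 CPM in WT livers (ENSMUSG00000005069, chromosome 6, 124396816 to 124415067). The fold change was 1.54 (log2 0.62, SE 0.13, adjusted p = 0.0187), and the call was lost without SCADD replicate 1, WT replicate 2 or WT replicate 3 (adjusted p 0.0774 to 0.107). Pex7, the receptor for N-terminal signals, had 98.7 ± 7.82 CPM in SCADD livers and 95.8 ± 8.02 CPM in WT livers (log2 fold change 0.04, SE 0.13, adjusted p = 0.892), a difference smaller than the spread between replicates.

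**Figure D2:**
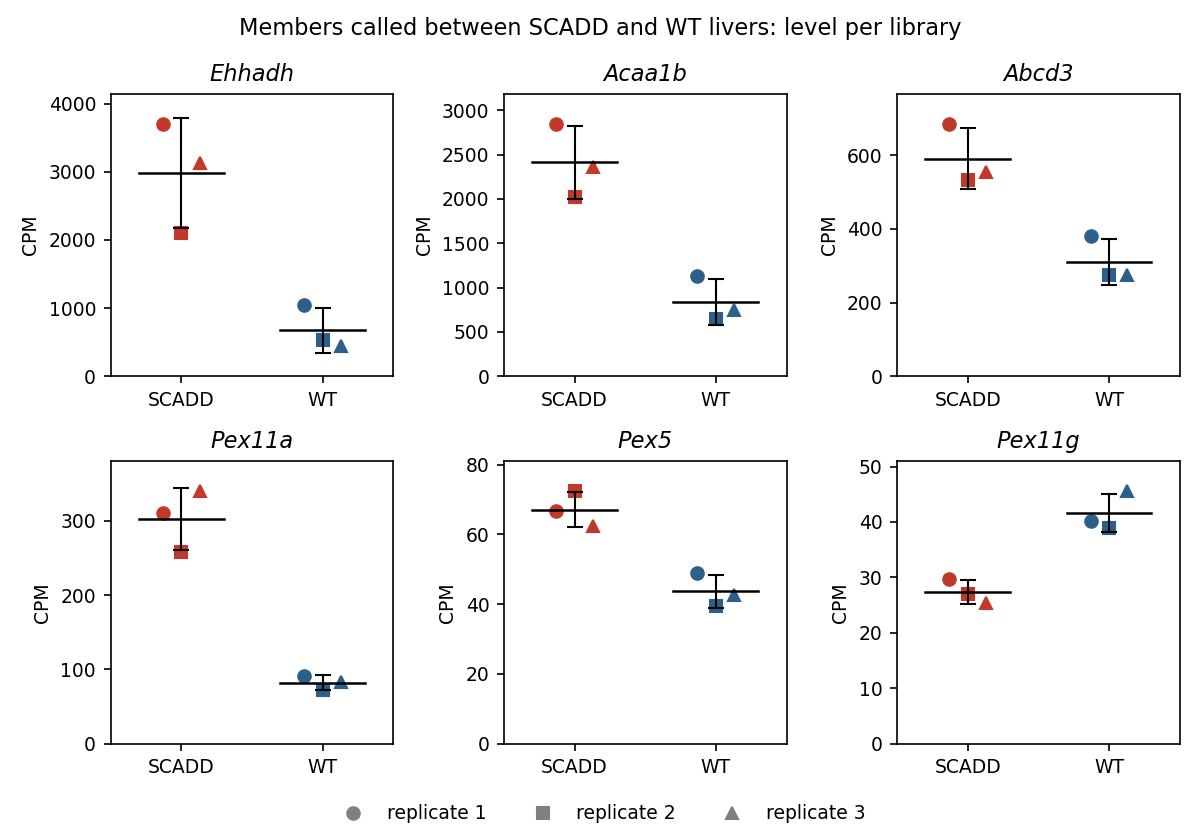
CPM of the 6 genes called between the groups in each library (y axis, from 0), SCADD left of WT, with horizontal lines for the mean and bars for the SD of 3 livers. Symbols mark the replicate; in all 6 genes the groups do not overlap, and Pex11g alone is lower in SCADD livers.

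Among animals of the same group, the 5 genes that rose shared part of their order. WT replicate 1 had the highest WT level of all 5, and SCADD replicate 2 had the lowest SCADD level of 4 of them, the exception being Pex5. For Ehhadh this spread was wide, at 2978 ± 809 CPM in SCADD livers and 671 ± 324 CPM in WT livers (SD, n = 3 each), while for Pex11a it was 303 ± 41.6 CPM and 82.0 ± 9.75 CPM. Over the 26 enzymes, SCADD replicate 3 was the lowest SCADD library for 16 and SCADD replicate 1 the highest for 17.

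Most genes of the beta-oxidation chain outside these did not pass the test. Hsd17b4, the D-bifunctional enzyme that works on branched chains and bile acid precursors, had 484, 444 and 417 CPM in SCADD livers and 338, 312 and 318 CPM in WT livers. These groups did not overlap, and the estimate was 0.47 on the log2 scale (SE 0.14, adjusted p = 0.0755). Acaa1a, the other thiolase of this type, was at 263 ± 25.6 CPM in SCADD livers and 207 ± 33.3 CPM in WT livers (log2 fold change 0.35, SE 0.16, adjusted p = 0.240). The branched-chain oxidase genes Acox2 and Acox3 had log2 fold changes of 0.07 (SE 0.16) and 0.15 (SE 0.15), with adjusted p-values of 0.836 and 0.587. Scp2, whose gene yields both a branched-chain thiolase and a sterol carrier protein, was at 4939 ± 469 CPM in SCADD livers and 5464 ± 270 CPM in WT livers (log2 fold change -0.15, SE 0.18, adjusted p = 0.684).

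Among the membrane carriers, Slc25a17, which moves coenzyme A and other cofactors, had 44.5, 45.9 and 32.7 CPM in SCADD livers and 24.9, 31.1 and 28.9 CPM in WT livers. The log2 fold change was 0.54 (SE 0.16, adjusted p = 0.0676), and the gene passed without the low-count filter (adjusted p = 0.015), with DESeq2 (0.0456) and without SCADD replicate 3 (0.00734). Abcd2, a transporter of very long-chain acyl-CoAs, had 80.4, 76.6 and 49.8 CPM in SCADD livers and 91.9, 125 and 74.97 CPM in WT livers, groups that overlapped (log2 fold change -0.50, SE 0.22, adjusted p = 0.217). Without the low-count filter it was called lower (adjusted p = 0.0347). Its estimate lay below 0 and that of Abcd3 above it, a difference that was not tested. Slc27a2, which activates very long-chain fatty acids, was at 0.19 on the log2 scale (SE 0.17, adjusted p = 0.572), and Acbd5, which ties peroxisomes to the endoplasmic reticulum, one of -0.07 (SE 0.15, adjusted p = 0.824).

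The side branches of the pathway showed no called gene. With 7.02% of all tested genes called in either direction, few calls would be found in so short a list anyway. Among the enzymes that prepare unsaturated chains, the reductase Decr2 was at 0.36 on the log2 scale (SE 0.18, adjusted p = 0.280), the isomerases Ech1 and Eci2 of 0.02 and 0.07, and the enoyl-CoA reductase Pecr of -0.23. Among those for branched chains, the racemase Amacr was at -0.21, the phytanoyl-CoA hydroxylase Phyh at -0.09 and the lyase Hacl1 at 0.24. Of the genes that export products or break down coenzyme A, the carnitine octanoyltransferase Crot was at -0.07 and the coenzyme A hydrolases Nudt7 and Nudt19 at -0.33 and -0.23. Nudt19 was the enzyme whose SCADD libraries all lay below the WT libraries, at 48.0 ± 1.17 CPM against 56.5 ± 1.25 CPM, with an adjusted p of 0.260. Catalase (Cat), which removes hydrogen peroxide, and the epoxide hydrolase Ephx2 had log2 fold changes of 0.21 (SE 0.18, adjusted p = 0.535) and 0.12 (SE 0.16, adjusted p = 0.708).

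Of the matrix proteases, Lonp2, which degrades damaged proteins, had 462, 434 and 402 CPM in SCADD livers and 337, 314 and 330 CPM in WT livers. The groups did not overlap, and the log2 fold change of 0.40 (SE 0.14) had an adjusted p of 0.120. Lonp2 and Hsd17b4 passed with DESeq2, at adjusted p-values of 0.0387 and 0.0107, and without SCADD replicate 3, at 0.0452 and 0.0269. Tysnd1, which cuts import signals from several of the oxidation enzymes, was at 0.22 (SE 0.16, adjusted p = 0.472).

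Estimates for peroxins of different steps lay on different sides of 0, which was not tested between steps. The genes for membrane assembly, Pex3, Pex16 and Pex19, had log2 fold changes of 0.38, 0.23 and 0.11, and those for docking at the membrane, Pex13 and Pex14, of 0.28 and 0.38. Pex14 had 29.2, 29.9 and 25.4 CPM in SCADD livers and 23.4, 20.2 and 21.2 CPM in WT livers, with no overlap (SE 0.13, adjusted p = 0.102). None of these 5 passed the test, although Pex14 did without SCADD replicate 3 (adjusted p = 0.0400).

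The peroxins that recycle the receptor had estimates below 0. Pex2, a RING-type ubiquitin ligase subunit, had 74.9, 67.4 and 83.0 CPM in SCADD livers and 84.5, 106 and 104 CPM in WT livers (log2 fold change -0.39, SE 0.14, adjusted p = 0.139). Its partner Pex10 was at 4.09 ± 0.377 CPM in SCADD livers and 5.37 ± 0.840 CPM in WT livers (log2 fold change -0.39, SE 0.19, adjusted p = 0.249). Pex6, an ATPase that pulls the receptor out of the membrane, had 54.3, 54.5 and 44.0 CPM in SCADD livers and 65.6, 61.5 and 74.8 CPM in WT livers (log2 fold change -0.40, SE 0.14, adjusted p = 0.115). All SCADD libraries lay below all WT libraries for these 3 genes, but none of them passed the test. Pex26, the membrane anchor of the ATPase, was at -0.04 (SE 0.15, adjusted p = 0.904).

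Groups did not overlap for 9 of 13 peroxins or 69.2%, 5 of them higher and 4 lower in SCADD livers, and for 8 of 26 enzymes or 30.8%, 7 higher and 1 lower. Over all tested genes this held for 28.0%, with 14.9% higher and 13.1% lower. The enzymes' total share was thus near that of all genes, but by direction 26.9% of the enzymes were higher and 3.85% lower. For the peroxins these were 38.5% and 30.8%. No difference between shares was tested.

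On the per-length scale of TPM, which lets genes be set against each other, the gene order differed between the groups, most for Pex11a, which was number 17 of the 39 in SCADD livers and number 26 in WT livers. In SCADD livers Scp2 was highest at 5311 ± 556 TPM, followed by Acaa1b at 1622 ± 396 TPM, Slc27a2 at 985 ± 234 TPM, Ehhadh at 980.0 ± 292 TPM and Crot at 929.6 ± 120 TPM, the last 3 within each other's spread. In WT livers Scp2 was highest at 5661 ± 381 TPM, followed by Crot at 1044 ± 259 TPM, Slc27a2 at 894 ± 165 TPM and Ech1 at 864 ± 24.4 TPM, again within their spread. Acaa1b was number 2 in SCADD livers and number 6 of 39 in WT livers (603 ± 222 TPM), and Ehhadh number 4 in SCADD livers and number 12 in WT livers (236 ± 128 TPM). Peroxins were less abundant, from Pex10 at 2.52 ± 0.436 TPM to Pex11a at 140.2 ± 16.2 TPM in SCADD livers, and from Pex10 at 3.26 ± 0.474 TPM to Pex19 at 80.0 ± 9.75 TPM in WT livers.

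**Figure D3:**
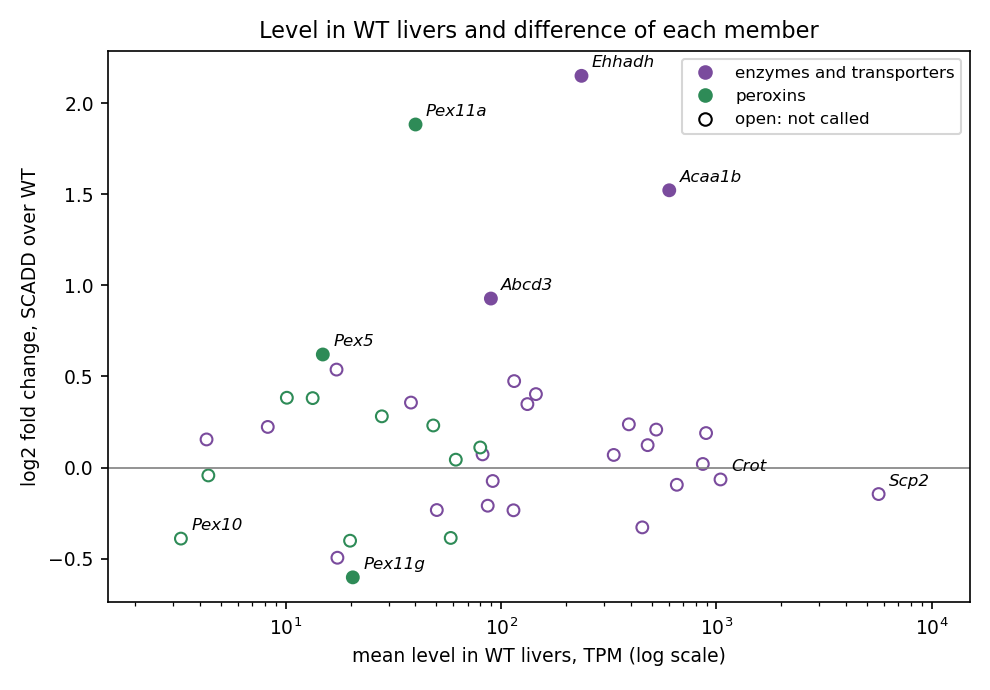
Mean level of each gene in WT livers in TPM (x axis, log scale) and its log2 fold change in SCADD over WT livers (y axis), enzymes in purple and peroxins in green, open points not called. The most abundant genes, Scp2 and Crot, lie near 0, and the called genes span WT levels from 14.85 TPM for Pex5 to 603 TPM for Acaa1b.

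Summed over the 26 enzymes the level was 14546 ± 2209 TPM in SCADD livers and 13129 ± 1244 TPM in WT livers. The 3 called enzymes made up 2763 ± 705 TPM of this in SCADD livers and 929 ± 370 TPM in WT livers, while the other 23 summed to 11783 ± 1664 TPM and 12200 ± 934 TPM. The 13 peroxins summed to 501 ± 72.4 TPM in SCADD livers and 402 ± 27.2 TPM in WT livers, and the 10 that were not called to 326 ± 50.4 TPM and 327 ± 17.6 TPM. TPM share a fixed total, and the 22 Mup genes, which encode urinary proteins, took 102434 ± 40202 TPM of it in SCADD livers and 36626 ± 4684 TPM in WT livers, with 148372 TPM in SCADD replicate 3. With the Mup genes taken out of the total, a step chosen after seeing the data, the enzymes summed to 16154 ± 1779 TPM in SCADD livers and 13627 ± 1259 TPM in WT livers, and the peroxins to 556 ± 57.1 TPM and 418 ± 28.0 TPM. On that scale the 23 enzymes that were not called summed to 13089 ± 1306 TPM in SCADD livers and 12662 ± 930.3 TPM in WT livers, so the sign of their difference turned, and the 10 peroxins that were not called to 362 ± 40.9 TPM and 339 ± 17.9 TPM. Both differences were smaller than the SD of the SCADD libraries.

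Ratios between related genes within a library do not depend on this total or on library size. The ratio of Ehhadh to Hsd17b4, the L- and D-bifunctional enzymes, was 7.38, 4.55 and 7.38 in SCADD replicates 1, 2 and 3 and 3.01, 1.66 and 1.33 in WT replicates 1, 2 and 3, a 3.34-fold difference. Ehhadh thus supplied 86.0% ± 3.51 of the summed TPM of the pair in SCADD livers and 64.9% ± 9.23 in WT livers (SD, n = 3 each). The ratio of Acaa1b to Acaa1a was 11.8, 9.40 and 11.9 in SCADD livers and 5.52, 4.19 and 3.74 in WT livers, a 2.47-fold difference. The ratio of Pex11a to Pex11g was 9.70, 9.88 and 11.7 in SCADD livers and 2.23, 1.81 and 1.81 in WT livers, a 5.36-fold difference. In each of the 3 ratios all SCADD libraries lay above all WT libraries, and p was 0.1 by exact permutation (two-sided), the smallest value that 3 against 3 libraries allow, also after adjustment over the 3 ratios. The first gene of each ratio was already called higher, and Pex11g was called lower. The ratios thus restate those calls and add no separate support.

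**Figure D4:**
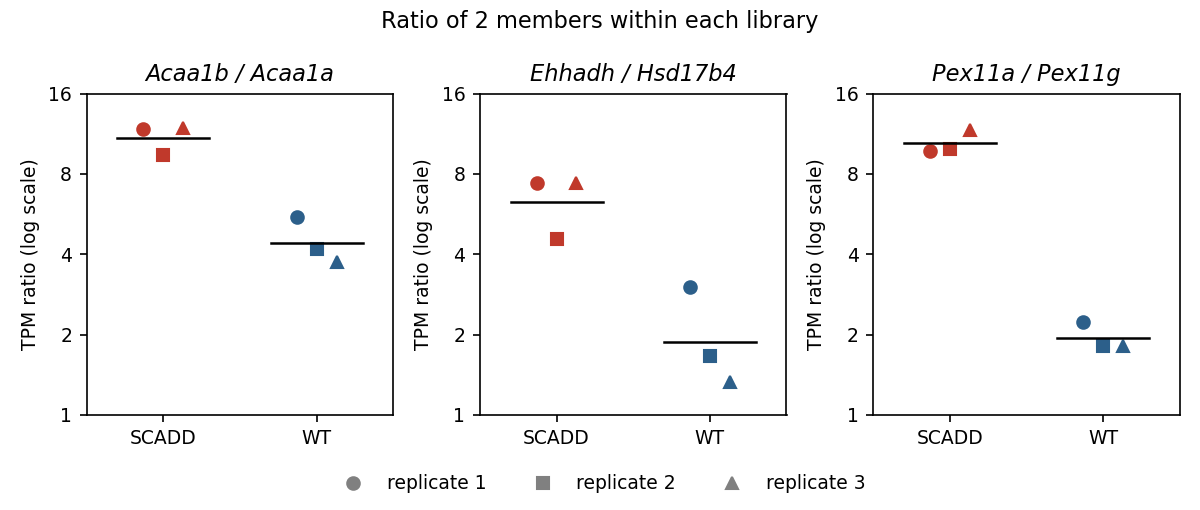
Ratio of TPM between related genes within each library (y axis, log scale), SCADD left of WT, with symbols for the replicate and lines for the geometric mean of 3 livers. For Pex11a to Pex11g the SCADD libraries sit between 9.70 and 11.7 and the WT libraries between 1.81 and 2.23.

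Counting rules touch several of these genes. Acaa1a and Acaa1b lie on chromosome 9, their longest coding transcripts are 91.0% identical over 1639 aligned bases, and 35.5% of the 50-base windows of Acaa1b also occur in Acaa1a, so reads from such stretches cannot be placed uniquely. The deposited RSEM counts, which divide shared reads, gave Acaa1b a log2 difference of 1.49 (adjusted p = 0.00641) and Acaa1a one of 0.21 (adjusted p = 0.496). Abcd3 overlaps the gene models Gm43609 and 4633401B06Rik on its own strand, and Hsd17b4 overlaps Cd63-ps, so reads could be split there too. Scp2 likewise overlaps Podn, Crot overlaps Gm27941 and Pex7 overlaps Gm48714. On RSEM counts the log2 fold changes were 0.92 for Abcd3, 0.48 for Hsd17b4, -0.12 for Scp2, -0.07 for Crot and 0.03 for Pex7. Each had the sign of its STAR estimate. Scp2 had 726818 reads by STAR and 777812 by RSEM. Hacl1 shares its strand with the overlapping gene model Gm49387, and STAR, which sets aside reads that fall in more than 1 gene, left it 3688 reads over the 6 libraries, against 70247 by RSEM. Its RSEM level was 412 ± 174 TPM in SCADD livers and 391.7 ± 99.3 TPM in WT livers, and the test on RSEM counts gave 0.02 on the log2 scale (adjusted p = 0.977).

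Promoters are shown for Ehhadh, Acaa1b and Pex11a, which had the highest fold changes of the 39 genes and are known PPAR-alpha targets in rodents, and for their relatives Acaa1a and Pex11g for comparison. Sequences are the 250 bases before the transcript start in RefSeq's table for GRCm38.p6, all 5′ to 3′ on the strand of the gene, with each CCAAT box and each copy of AGGTCA, on either strand, in capitals. The windows are chr16:21787835-21788084 (minus strand) for Ehhadh, chr9:119157094-119157343 (minus strand) for Acaa1b, chr9:119341044-119341293 (plus strand) for Acaa1a, chr7:79743132-79743381 (minus strand) for Pex11a and chr8:3467649-3467898 (minus strand) for Pex11g.
Ehhadh: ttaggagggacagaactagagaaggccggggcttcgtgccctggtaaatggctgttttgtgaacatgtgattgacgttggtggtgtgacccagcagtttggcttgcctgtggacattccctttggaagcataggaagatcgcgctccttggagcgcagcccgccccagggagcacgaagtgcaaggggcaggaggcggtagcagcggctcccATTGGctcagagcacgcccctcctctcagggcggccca
Acaa1b: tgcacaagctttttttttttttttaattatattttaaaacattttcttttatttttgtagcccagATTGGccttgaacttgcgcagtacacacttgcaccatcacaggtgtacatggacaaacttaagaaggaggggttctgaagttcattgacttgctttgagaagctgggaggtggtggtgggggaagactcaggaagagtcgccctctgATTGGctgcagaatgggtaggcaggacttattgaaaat
Acaa1a: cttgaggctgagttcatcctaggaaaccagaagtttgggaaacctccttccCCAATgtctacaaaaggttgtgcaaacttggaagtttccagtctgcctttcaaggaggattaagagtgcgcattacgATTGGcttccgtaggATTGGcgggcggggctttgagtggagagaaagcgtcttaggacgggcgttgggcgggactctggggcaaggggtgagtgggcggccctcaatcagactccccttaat
Pex11a: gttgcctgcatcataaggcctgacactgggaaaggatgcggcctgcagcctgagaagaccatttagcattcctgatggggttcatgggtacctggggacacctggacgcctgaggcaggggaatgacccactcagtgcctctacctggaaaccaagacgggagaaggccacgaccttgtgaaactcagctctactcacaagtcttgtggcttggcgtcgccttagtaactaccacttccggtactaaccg
Pex11g: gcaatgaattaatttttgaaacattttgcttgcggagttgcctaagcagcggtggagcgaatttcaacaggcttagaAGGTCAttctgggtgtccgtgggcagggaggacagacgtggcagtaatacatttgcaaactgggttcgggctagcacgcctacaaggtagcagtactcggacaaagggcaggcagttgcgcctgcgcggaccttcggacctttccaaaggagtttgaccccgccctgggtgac

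The element that PPAR-alpha and RXR bind is a direct repeat of AGGTCA with any 1 base between the copies. It was searched on both strands of the whole 300-base windows, which add 50 bases after the start, with up to 2 of its 12 fixed bases different. A match was found in 2 of 42 windows of the genes described here, or 4.76%, against 3.86% of all 32851 windows in the table, and 33 of the 39 genes had a window. Cat held AGGTCAGAGAACA, 204 bases before its start, and Acox2 held AGGACAGAGGTGA within its first transcribed bases, each with 2 differences. None of the called genes with a window had a match. The copy AGGTCA alone occurred in 11.9% of these windows and in 16.3% of all, including that of Pex11g, and CCAAT in 38.1% and in 37.4%, overlaps between motifs included. Ehhadh and Acaa1b both carried a CCAAT box on the opposite strand that began 38 bases before the start. Matches describe letters in these windows only and say nothing about binding.

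A further list, called other peroxisomal enzymes here, was described for context. It also holds membrane proteins, and where in the cell each product resides was not checked. Of 33 tested genes of this list 5 rose and 1 fell, or 15.2% and 3.03%, against 4.22% and 2.8% of all tested genes. The acyl-CoA thioesterases Acot3 and Acot4 rose, with Acot3 at 124 ± 19.5 CPM in SCADD livers and 6.90 ± 1.40 CPM in WT livers (log2 fold change 4.17, SE 0.20, adjusted p = 2.32e-06) and Acot4 at 278 ± 23.6 CPM and 55.8 ± 5.76 CPM (log2 fold change 2.32, SE 0.15, adjusted p = 1.87e-05). The thioesterase Acot12 and the reductase Dhrs4 rose by 0.53 and 0.51 on the log2 scale, and both lost their calls under upper-quartile scaling (adjusted p 0.0598 and 0.0559) and in 5 of 6 fits without a library. The fifth was Nudt12, named after its values were seen. Agxt, which detoxifies glyoxylate, fell to 191 ± 39.6 CPM in SCADD livers, against 342 ± 11.8 CPM in WT livers (log2 fold change -0.84, SE 0.17, adjusted p = 0.0162), and lost its call without SCADD replicate 1, WT replicate 2 or WT replicate 3 (0.0501 to 0.0667). Under upper-quartile scaling 2 genes of this list rose, and without SCADD replicate 1, SCADD replicate 2, WT replicate 2 or WT replicate 3 also 2, and 3 without WT replicate 1. Over all tested genes 470, 324, 541, 240, 283 and 403 rose in these fits, in that order, against 569 in the main fit.

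PPAR-alpha regulators and target genes outside the peroxisome rose in 9 of 29 tested cases and fell in 1. These are 31.0% and 3.45%, against 4.22% and 2.8% of all tested genes. The pantetheinase Vnn1, at 751 ± 125 CPM in SCADD livers and 95.8 ± 40.1 CPM in WT livers, the thioesterases Acot1 and Acot2, the lipid droplet gene Fitm1 and the receptor gene Pparg rose, with log2 fold changes from 1.64 for Pparg to 4.08 for Fitm1 and adjusted p-values up to 0.00227. The fall was in the coactivator Ppargc1a (log2 fold change -1.82, SE 0.30, adjusted p = 0.00744), named after its values were seen. Without SCADD replicate 3 the list held 0 genes that fell, in a fit where 681 of 13805 tested genes fell. Ppara itself, chosen likewise, was estimated at 0.47 on the log2 scale (SE 0.16, adjusted p = 0.1115). Of 15 mitochondrial oxidation genes 2 rose (13.3%) and 0 fell by edgeR, against 4.22% and 2.8% of all tested genes. At an unadjusted p under 0.05 by edgeR 0 were lower, against 10.2% of all genes, and DESeq2 called 0 lower, against 4.04%. The 2 that rose were the carnitine carrier Slc25a20 (log2 fold change 0.78, SE 0.13, adjusted p = 0.00681) and the dehydrogenase Acadm (0.70, SE 0.17, adjusted p = 0.0304), and Acadm lost its call in 4 of 6 fits without a library (adjusted p 0.0941 to 0.146).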

How the data were processed

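Poly(A) RNA of liver was sequenced from 3 SCADD and 3 WT mice, which the series' design text calls biological replicates. Per the submitters' processing notes, STAR 2.7.6a and RSEM 1.3.3 were used with GRCm38; the annotation release is not given in the sources used here. The authors deposited read counts per gene from STAR and, from RSEM, expected counts, TPM, FPKM and effective lengths. FPKM were not used for any result.

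STAR counts of column 4, the strand that held nearly all reads, were tested with edgeR 4.0.16 and limma 3.58.1 in R 4.3.3 (filterByExpr with a minimum count of 10, TMM scaling, robust quasi-likelihood fit, Benjamini-Hochberg adjustment over 13498 genes, threshold 0.05). The SE of a log2 fold change is its size divided by the square root of the F statistic. TPM were used for levels between genes, and their ratios were tested with an exact permutation test. Gene positions are from a GENCODE annotation of GRCm38. The test was checked on simulated data drawn with the same dispersion for every gene. That check does not cover spread that differs between genes or between these libraries. Counts and p-values cover the spread between these animals.

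The 39 genes and all other lists were chosen with earlier results of these data known. Values in every library are given for each called gene and for the 6 others with the smallest p. They are also given for Abcd2, which that choice does not cover (unadjusted p = 0.0484 by edgeR). As a rule up to 5 called genes with the smallest p are named per other list, besides those said to be named after their values were seen. The counts of calls, the 39 genes and the genes named by this rule were refitted under 16 alternatives, DESeq2 1.42.0 and rounded expected counts among them. Nudt12, Ppargc1a, Ppara and the markers were not. Deviations of the libraries from their group means were correlated between the 2 groups. Same-numbered SCADD and WT libraries gave 0.0606, 0.0372 and 0.107, and the other pairs -0.127 to 0.0612. These values cannot decide whether the numbers pair the animals, and the main fit did not treat them as pairs. A list of further peroxins and division factors is not reported here.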

Additional observations from a re-analysis of the deposited data

How the results depend on the processing

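With DESeq2, 6 enzymes rose, and 9 of the other peroxisomal enzymes rose and 2 fell, where 5.52% of all tested genes rose and 4.04% fell. With no filter on low counts, 1 enzyme fell and 3 other peroxisomal enzymes fell. In that fit 950 genes rose and 752 fell of 24676 tested, against 569 and 378 of 13498 in the main fit. Under upper-quartile scaling 2 other peroxisomal enzymes rose, and the log2 fold changes of Ech1 and Pex7 turned to -0.0276 and -0.0033. The cause was not tested. With the replicate block, 668 genes rose and 480 fell, against 569 and 378 without it, and the counts of called enzymes and peroxins were as without it; of the genes refitted, which leave out Nudt12, Ppargc1a and Ppara, only Dhrs4 lost its call (adjusted p = 0.0504). Leaving out 1 library at a time gave 2 to 5 enzymes that rose, 1 to 3 peroxins that rose and 0 to 1 that fell, 2 to 6 other peroxisomal enzymes that rose and 0 to 2 that fell, 0 to 1 PPAR-alpha list genes that fell, 1 to 3 mitochondrial genes that rose, and 240 to 909 genes that rose and 155 to 681 that fell overall. The median log2 fold change then ranged from 0.0272 to 0.21 over the enzymes and from 0.0643 to 0.20 over the peroxins. Estimates that changed sign when a library was left out were those of Acox2 (-0.0277 to 0.19), Ech1 (-0.0512 to 0.0838), Eci2 (-0.0077 to 0.17), Hacl1 (-0.0696 to 0.41), Crot (-0.22 to 0.0922), Pex7 (-0.0368 to 0.0877) and Pex26 (-0.16 to 0.0487). Depth limits Pex10 most, with 673 STAR reads over the 6 libraries.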
